A study of Mus musculus with 6 samples.

Results

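The genes described here are 5 components of bone morphogenetic protein (BMP) signalling and the related TGF-beta branch, namely the ligand genes Bmp5 and Bmp6, the receptor genes Acvr1 and Bmpr2, and the signal transducer gene Smad3. They were taken by name, as 5 of the 21887 protein-coding genes on the chromosomes of the annotation, with Acvr1 included because it carries the mutation. Accessible DNA was mapped with ATAC-seq, an assay that inserts sequencing adapters into open chromatin with a transposase, in mouse embryonic fibroblasts from E13.5 embryos. There were 3 libraries of the FOP mutant genotype Acvr1R206H/+ and 3 wild-type libraries of the genotype Acvr1+/+. The mutant cells are heterozygous for R206H, the receptor change of fibrodysplasia ossificans progressiva (FOP), a disorder in which bone forms in soft tissue. All cells were grown in the same serum-supplemented medium. The labels call the 3 libraries of a genotype biological replicates and do not tie a library to an embryo. They do not say how the allele was introduced.

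The authors deposited a pair of position lists, one of regions more accessible in FOP cells than in wild-type cells and one of regions less accessible in FOP cells. The lists hold 2965 and 556 regions and no value per library, so depth is unknown, no fold change or p-value can be given for a region, and the identity of the cells cannot be checked against markers. A region was linked to a gene when its midpoint lay inside the span of the gene, or, outside all protein-coding spans, to the nearest one within 100 kb. Regions within 500 kb of each gene were counted as well. By these rules 6 of the 3521 listed regions were linked to the 5 genes and 16 lay within 500 kb of them.

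BMPs are secreted dimers that assemble type I and type II receptor kinases into one complex. The type II receptor phosphorylates the type I receptor, which then phosphorylates receptor-regulated SMAD proteins, and these enter the nucleus with SMAD4 and bind DNA. Acvr1 encodes the type I receptor ALK2, and the mutated residue lies in the regulatory segment beside its kinase domain. Bmpr2 encodes a type II receptor for BMPs. Bmp5 and Bmp6 encode ligands of the group that signals through ALK2. Smad3 encodes a transducer of the TGF-beta and activin branch.

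The listed regions divided the genes by direction. Bmp5 and Bmpr2 were linked to more accessible regions, Bmp6 to a less accessible one, Smad3 to one of each, and Acvr1 to none. A more accessible region was thus linked to 3 of the 5 genes, against 7.27% of all protein-coding genes, and a less accessible one to 2 of the 5, against 1.99%. The 5 genes span 111.2 to 154.6 kb, while the median span of protein-coding genes is 17.2 kb. Of the 1439 protein-coding genes that span 100 to 200 kb, 23.8% had a linked more accessible region and 5.28% a less accessible one. The genes were chosen with such counts known, so the comparison is a description.

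**Figure D1:**
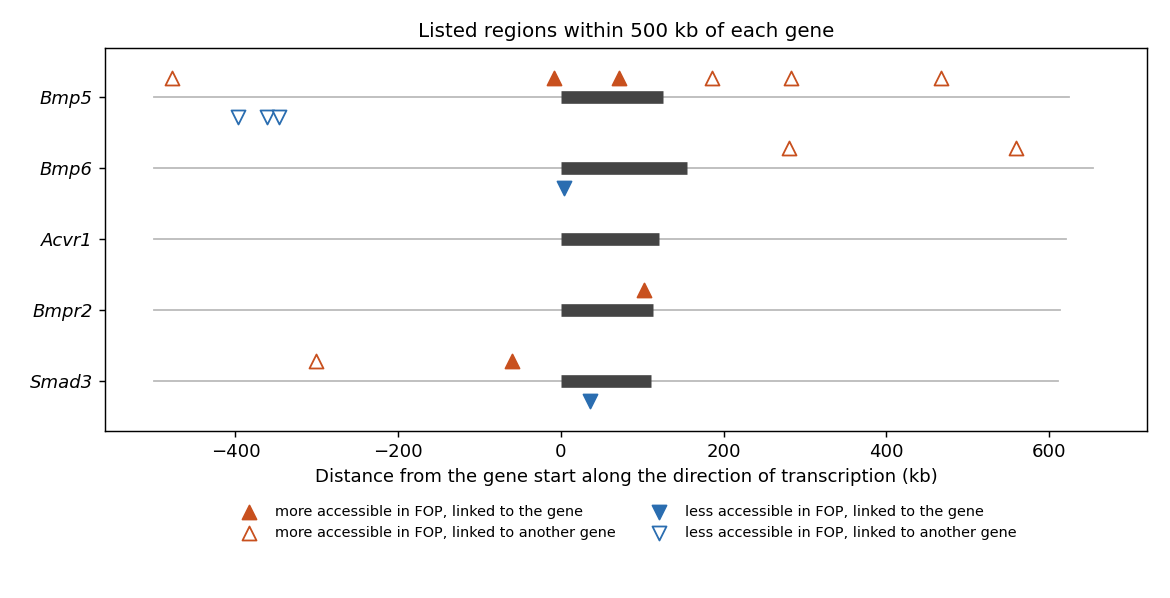
Position of every listed region within 500 kb of the 5 genes, in kb from the start of the gene along the direction of transcription; dark bars are gene spans, grey lines the 500 kb window, upward triangles regions more accessible in FOP cells, downward triangles regions less accessible in FOP cells, and filled symbols regions linked to the gene itself. Bmp5 has 9 regions in its window, Acvr1 none, and the filled downward symbol of Bmp6 lies 4.26 kb from its start.

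Among the ligands, Bmp5 (chromosome 9, 75775365 to 75900316, GRCm38, plus strand) was linked to 2 more accessible regions. One, of 457 bp at 75767257 to 75767713, lay 7.88 kb upstream of the gene start and within the span of the long non-coding RNA gene Gm39373, to which it went when non-coding genes could also take links, leaving Bmp5 with 1. The other, of 764 bp at 75846012 to 75846775, lay inside the gene, 71.0 kb from the start and 53.9 kb from the end of transcription. At least 2 linked more accessible regions were found at 2.07% of protein-coding genes. That share was not split by span, and at least 1 was found at 23.8% of protein-coding genes spanning 100 to 200 kb, as Bmp5 does. A region of the same direction, 839 bp wide at 75960595 to 75961433, lay 60.7 kb beyond the end of Bmp5. It was assigned to Hmgcll1, a gene of the HMG-CoA lyase family, which is 53.7 kb away on the other side and so slightly closer.

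The surroundings of Bmp5 held more listed regions than those of the other 4 genes. Within 500 kb there were 9 regions, 6 more and 3 less accessible in FOP cells, which is 8.0 regions per Mb. The median over protein-coding genes was 0.976 regions per Mb and 1 region per window, and 0.425% of genes had 9 or more; neighbouring genes share regions, so that these genes are not independent. From 7.88 kb upstream of Bmp5 to 342 kb beyond its end the 5 regions were all more accessible, at spacings of 78.9, 115, 97.0 and 185 kb; over both lists 84.2% of regions were more accessible, so that neighbours of this direction are common. The last of them lay inside Hcrtr2, which encodes an orexin receptor, and the one before it inside Hmgcll1. The 3 less accessible regions lay 346 to 396 kb upstream, at spacings of 35.4 and 14.7 kb, beside Mapk6, which encodes an atypical MAP kinase, and Leo1, which encodes a subunit of the PAF1 transcription elongation complex. A stretch of 338 kb without a listed region separated them from the region upstream of Bmp5. The remaining more accessible region was inside Myo5c, a myosin gene, 479 kb upstream. At least 3 less accessible regions within 500 kb were found at 2.02% of protein-coding genes.

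Bmp6 (chromosome 13, 38345716 to 38500314, plus strand) had a single linked region, and it was less accessible in FOP cells. This region, of 476 bp at 38349742 to 38350217, lay inside the gene 4.26 kb from its start, the shortest distance to a gene start among the 6 linked regions. The annotation used gives gene spans without exons, so exon and intron cannot be told apart. The next less accessible region lay 1339 kb away. Within 500 kb, the 2 more accessible regions were both downstream of the gene, 126 kb beyond its end inside Bloc1s5, a gene of lysosome-related organelle biogenesis, and 405 kb beyond its end near Slc35b3, which encodes a nucleotide sulfate transporter. The region in Bloc1s5 was 1053 bp wide, and 94.5% of the more accessible list was narrower. Listed regions within 500 kb numbered 3 for Bmp6, and 19.7% of protein-coding genes had at least as many.

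Promoter sequences of the ligand genes and of Acvr1 are shown because the listed regions lay outside them. They run from 250 bases before to 50 bases after the annotated start (RefSeq, GRCm38.p6), 5′ to 3′ on the strand of the gene. The windows are chr9:75775115-75775414 (plus) for Bmp5, chr13:38345466-38345765 (plus) for Bmp6 and chr2:58566779-58567078 (minus) for Acvr1. Capitals mark the SMAD box core CAGAC or its reverse complement GTCTG.
Bmp5: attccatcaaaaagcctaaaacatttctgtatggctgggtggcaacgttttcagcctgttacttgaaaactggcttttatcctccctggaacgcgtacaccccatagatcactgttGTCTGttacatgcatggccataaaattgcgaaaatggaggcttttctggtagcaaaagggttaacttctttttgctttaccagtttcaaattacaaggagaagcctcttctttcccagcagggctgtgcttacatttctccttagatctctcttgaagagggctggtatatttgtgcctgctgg
Bmp6: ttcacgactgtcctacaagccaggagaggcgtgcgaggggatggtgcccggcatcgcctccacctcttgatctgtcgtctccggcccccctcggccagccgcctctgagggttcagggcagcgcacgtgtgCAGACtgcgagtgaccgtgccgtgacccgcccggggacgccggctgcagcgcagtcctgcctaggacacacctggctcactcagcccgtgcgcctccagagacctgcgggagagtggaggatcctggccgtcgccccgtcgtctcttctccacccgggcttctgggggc
Acvr1: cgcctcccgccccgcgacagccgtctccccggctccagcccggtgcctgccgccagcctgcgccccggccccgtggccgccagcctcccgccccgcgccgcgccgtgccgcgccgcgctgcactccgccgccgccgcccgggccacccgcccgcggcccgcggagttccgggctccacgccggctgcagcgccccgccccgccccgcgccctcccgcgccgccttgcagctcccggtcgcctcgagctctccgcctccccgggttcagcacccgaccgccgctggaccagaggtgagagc

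None of the 5 promoter windows overlapped a listed region of either direction. Overlap with a promoter window was rare in the lists as a whole, at 32 of the 3380 regions on the chromosomes of the promoter table (0.947%). The ligand promoters differed in base composition. That of Bmp5 had 43.3% G and C and 4 CpG dinucleotides, below the medians of 52.7% and 7 over 32841 promoter windows, while that of Bmp6 had 69.3% and 27. The Acvr1 window was the richest of the 5, at 83.7% G and C with 51 CpG dinucleotides, and 0.238% of all windows had as high a content. The Smad3 and Bmpr2 windows had 67.7% and 59.3%.

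Short motifs were searched on both strands of the 5 windows. CAGAC occurred once in the Bmp5 and once in the Bmp6 window, and was present in 49.6% of all promoter windows. The GC-rich SMAD element GGCGCC, which is its own reverse complement, occurred once, in the Bmpr2 window, and was present in 11.9%. The TEAD core GGAATG and the AP-1 motif TGANTCA were in none of the 5 windows, and in 14.7% and 7.81% of all windows. The motifs do not overlap one another in these windows. These matches describe letters in windows that carry no listed region, and the listed regions themselves were not searched because their sequence was not used here.

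Of the receptor genes, Acvr1 (chromosome 2, 58446438 to 58566828, minus strand) had no listed region linked to it and none within 500 kb. No region of either list within 500 kb was found at 39.2% of protein-coding genes. The window of Acvr1 also holds Acvr1c, which encodes the type I receptor ALK7, and the other protein-coding genes in it number 6, against a median of 16. The nearest more accessible region lay 597 kb beyond the end of transcription, and the nearest less accessible one 1609 kb away. On the upstream side the first 4 listed regions, all more accessible, lay 915 to 994 kb from the gene, and 3 of them were linked to Dapl1 and 1 to Tanc1.

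Bmpr2 (chromosome 1, 59764279 to 59878081, plus strand) had 1 linked region, more accessible in FOP cells. It was 557 bp wide at 59866701 to 59867257 and lay inside the gene, 103 kb from the start and 11.1 kb from the end of transcription, so it was nearer to the end than any other region linked to the 5 genes. It stood alone. No other listed region lay within 500 kb, the nearest region of the same direction was 1108 kb away, and the nearest less accessible region was 1003 kb from the gene. At least 1 region within 500 kb was found at 60.8% of protein-coding genes.

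Smad3 (chromosome 9, 63646766 to 63757994, minus strand) was the one of the 5 genes with linked regions of both directions, which 0.366% of all protein-coding genes and 1.81% of those spanning 100 to 200 kb had. The less accessible region, of 382 bp at 63721663 to 63722044, lay inside the gene 36.1 kb from the start, and 6.83% of the less accessible list was narrower. The more accessible region, of 513 bp at 63818129 to 63818641, lay 60.4 kb upstream of the start, in the interval between Smad3 and Smad6, which encodes an inhibitory SMAD of the BMP branch. With links within 10 kb, or with non-coding genes and pseudogenes also taking links, this region was not linked to Smad3, and the gene then had the less accessible one alone. A second more accessible region, of 594 bp at 64058133 to 64058726, lay 36.3 kb upstream of Smad6 and 300 kb upstream of Smad3. Both genes are on the minus strand, so each of these regions is upstream of the gene it was linked to. With these, Smad3 had 3 regions within 500 kb, and 19.7% of protein-coding genes had at least as many.

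Across the 5 genes the linked regions had little in common beyond lying outside promoters. They were 382 to 764 bp wide, within the range of 200 to 1949 bp of the lists, and 4 of the 6 lay inside a gene. Distances to the gene start were 4.26 to 103 kb. Of the 6 linked regions 4 were more accessible (66.7%, exact 95% interval 22.3 to 95.7%), and of the 16 within 500 kb 11 were (68.8%, 41.3 to 89.0%). Over all listed regions the share was 84.2% (83.0 to 85.4%), which lies within both intervals. The intervals cover counting error only, and regions are not replicates. At least 1 more accessible region lay within 500 kb of 4 of the 5 genes, against 49.9% of protein-coding genes, and at least 1 less accessible region within 500 kb of 3 of the 5, against 25.5%.

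**Figure D2:**
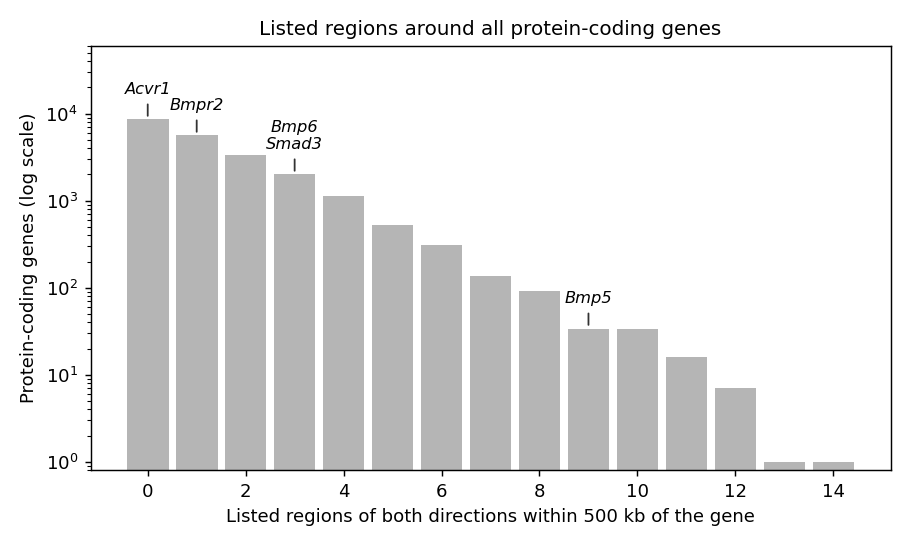
Number of protein-coding genes (log scale) by the number of listed regions of both directions within 500 kb of the gene, with the 5 genes marked. Bmp5 lies in the upper tail with 9 regions, Bmp6 and Smad3 have 3, Bmpr2 has 1, and Acvr1 shares 0 with 39.2% of the 21887 genes.

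In the wider pathway, a list of 93 ligand, receptor, SMAD, modulator and regulator genes, 21 genes had a linked more accessible region (22.6%, against 7.27% of protein-coding genes) and 4 a less accessible one (4.30%, against 1.99%). The counts depended on the linking rule. With links within 10 kb, 10 of the 93 pathway genes had a more accessible region, against 5.03% of all protein-coding genes. With non-coding genes and pseudogenes also taking links 12 of the 93 had one, against 5.46%. For less accessible regions the count was 9 of 93 with the nearest gene at any distance, against 2.31% of all protein-coding genes. It was 2 of 93 with non-coding genes included, against 1.51%. Without the 5 genes the counts under the main rule were 18 (20.5%) and 2 (2.27%) of 88. The list was drawn up with earlier results of these data known, and its genes are longer, with a median span of 28.3 kb against 17.2 kb. Split by span, the other pathway genes with a more accessible region were 3 of 40 under 20 kb (7.50%, against 2.0% of all protein-coding genes of that span), 3 of 20 between 20 and 50 kb (15.0%, against 5.85%) and 6 of 17 between 50 and 100 kb (35.3%, against 11.4%). They were 2 of 7 between 100 and 200 kb (28.6%, against 23.8%) and 4 of 4 above 200 kb (against 43.1%). Under the main rule the pathway share was thus above that of all genes in each class of span. The gap was least at 100 to 200 kb, where the count was 2 of 7 without the 5 genes, which belong to this class. With the 5 genes, chosen with such counts known, it was 5 of 12 (41.7%). No test was made of these shares, and the split was not repeated with links within 10 kb. Of the 3 pathway genes under 20 kb, Bmp2 had its region 3.55 kb away, Bmp4 76.5 kb and Bambi 84.7 kb.

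**Figure D3:**
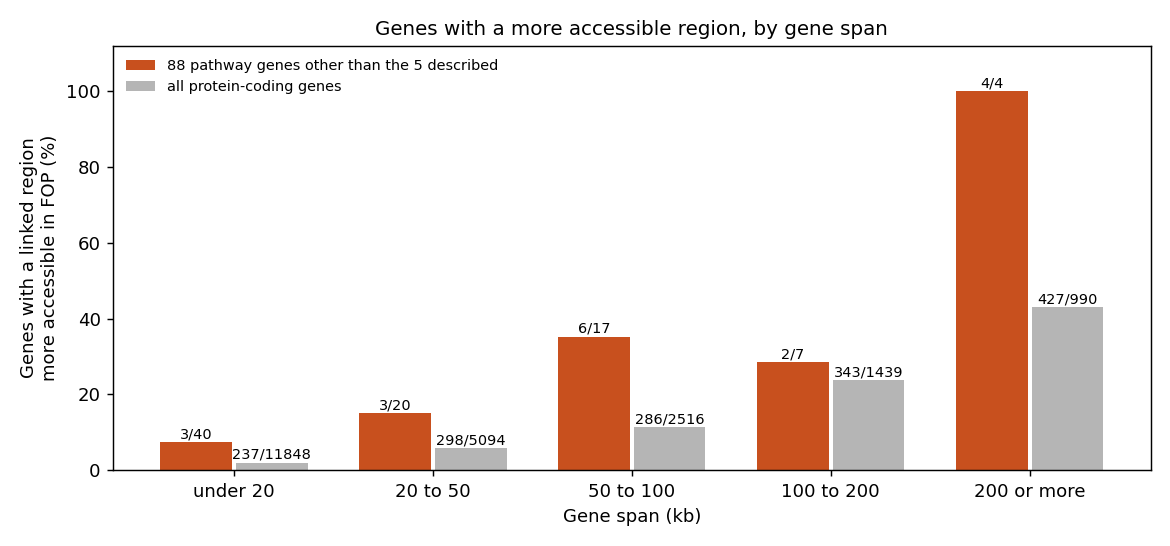
Percentage of genes with at least 1 linked region more accessible in FOP cells, by gene span, for the 88 pathway genes other than the 5 described (orange) and all protein-coding genes (grey), with the number of genes above each bar. The share of all protein-coding genes increases with span from 2.0% to 43.1%. Under the main rule, with links within 100 kb, the pathway bars are higher in each class, by the least (28.6% against 23.8%) at 100 to 200 kb. The split was not repeated with links within 10 kb.

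Ligand genes of the BMP and GDF group had more accessible regions at 3 of 17 (17.6%, against 7.27% of all protein-coding genes). Besides Bmp5 these were Bmp2, with a region 3.55 kb from the gene, and Bmp4, with a region 76.5 kb away. Both encode ligands that signal mainly through BMPR1A and BMPR1B. The single less accessible one was at Bmp6 (5.88% of the group, against 1.99% of all protein-coding genes). None of the 14 activin, TGF-beta and nodal ligand genes, with a median span of 7.08 kb, had a linked region of either direction. Of all protein-coding genes under 20 kb, 2.0% had a more accessible region and 0.988% a less accessible one, which is also close to none. The other roles differ in gene length. Median spans were 10.7 kb for BMP and GDF ligands, 90.4 kb for type I receptors, 87.7 kb for type II receptors and 65.0 kb for SMADs. Type I receptor genes had more accessible regions at 3 of 7 (42.9%, against 7.27% of all protein-coding genes and 11.4% of those spanning 50 to 100 kb). Of the 3, Bmpr1a alone is in that class, at 92.3 kb. Bmpr1b spans 332 kb and Acvr1b 39.6 kb. The shares of all protein-coding genes were 43.1% above 200 kb and 5.85% between 20 and 50 kb. The region at Bmpr1a, of 547 bp, and that at Bmpr1b, of 680 bp, lay inside the genes, which encode ALK3 and ALK6. Acvr1b, which encodes the activin receptor ALK4, had 2, one inside it and one 10.4 kb away. Among the 5 type II receptor genes 2 had a more accessible region (40.0%, against 7.27% of all protein-coding genes). These were Bmpr2, already described, and the TGF-beta receptor gene Tgfbr2, with a region 34.7 kb away. With links within 10 kb, the region of Tgfbr2 would not be linked. A less accessible region was linked to 0 of these 12 receptor genes, where the share over all protein-coding genes, 1.99%, is also close to 0.

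Among 7 genes of co-receptors and pseudoreceptors, 3 had a more accessible region (42.9%, against 7.27% of all protein-coding genes). Rgma, a BMP co-receptor gene, had 1 of each direction, the less accessible one 45.7 kb and the more accessible one 76.0 kb from the gene, and was with Smad3 one of 2 pathway genes linked in both directions. Bambi, which encodes a decoy receptor without kinase activity, had 1 at 84.7 kb, and Neo1, which encodes a receptor for RGM proteins, 1 at 29.4 kb. SMAD genes with a more accessible region were 3 of 8 (37.5%, against 7.27%), namely Smad3, Smad6 and Smad2. The product of Smad2 acts beside SMAD3, and the region of Smad2 lay 34.6 kb away. Smad3 was the single SMAD gene with a less accessible one (12.5%, against 1.99% of all protein-coding genes), as Rgma was among the co-receptor genes (14.3%). The more accessible regions of the co-receptor and SMAD genes all lay 29.4 to 84.7 kb from the gene. With links within 10 kb, none of them would be linked.

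Extracellular modulators had more accessible regions at 4 of 23 genes (17.4%, against 7.27% of all protein-coding genes). Less accessible ones were at 0 of 23, against 1.99% of all protein-coding genes. Bmper and Ltbp1 span 262 and 387 kb, and 43.1% of all protein-coding genes above 200 kb had a more accessible region. Bmper, which encodes a secreted BMP-binding protein, had 2 inside it and 1 at 63.9 kb. Ltbp1, for a protein that tethers latent TGF-beta to the matrix, had 3 inside it, and the related Ltbp2 and Tll1, a protease gene of the BMP1 family, had 1 each inside. Of 12 intracellular regulators 3 had a more accessible region, at 42.9 kb for the phosphatase gene Ppm1a, at 61.2 kb for Pmepa1, which encodes an inhibitor of TGF-beta signalling, and at 86.2 kb for the ubiquitin ligase gene Nedd4l. Fkbp1a had a less accessible region 8.62 kb away. It encodes FKBP12, the protein that binds the regulatory segment of type I receptors and holds them inactive. Within 500 kb, Bmp5 with its 9 regions was exceeded among the 93 genes by 1, Bmper with 10, all more accessible.

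**Figure D4:**
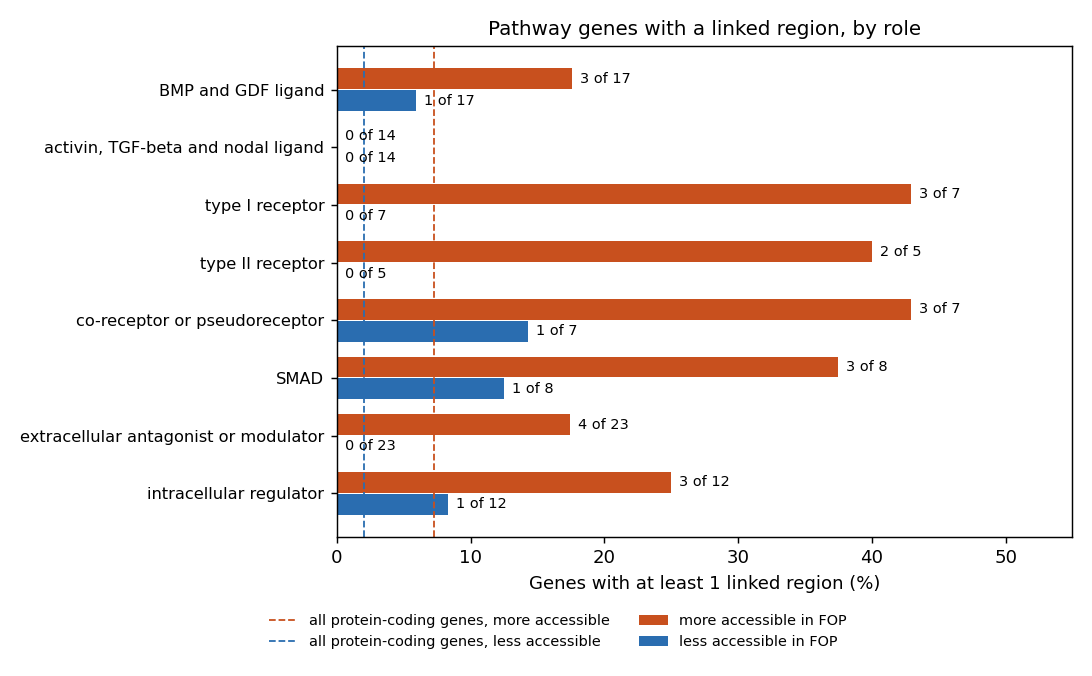
Percentage of pathway genes in each role with at least 1 linked region more accessible (orange) or less accessible (blue) in FOP cells, with the number of genes beside each bar; dashed lines give the shares over all protein-coding genes, 7.27% and 1.99%. Receptor, co-receptor and SMAD genes have the longest orange bars, each from 2 or 3 genes. All regions behind the co-receptor and SMAD bars lay 29.4 to 84.7 kb from the gene, so none would count with links within 10 kb. Type I receptor, type II receptor and SMAD genes are also long, with median spans of 65.0 to 90.4 kb. Of all protein-coding genes of 50 to 100 kb 11.4% had a more accessible region. Bmpr1b, at 332 kb, and Acvr1b, at 39.6 kb, lie outside that class. The activin, TGF-beta and nodal ligands, with a median span of 7.08 kb, have none, and 2.0% of all protein-coding genes under 20 kb had a more accessible region.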

How the data were processed

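ATAC-seq of 3 FOP and 3 wild-type libraries was described by the labels' protocols as tagmentation of nuclei from 100000 cells for 30 min, 10 cycles of PCR and 150 bp paired-end reads. The authors deposited a pair of region lists whose values are base pair positions, with no count or signal. Builds mm10 and GRCm38 and the tools DESeq2, featureCounts, MACS2, bedtools, SAMtools, Bowtie2 and Trimmomatic are named in the submitters' processing notes. Versions, cutoffs, pooling for peak calling, and the treatment of duplicates and of the transposase offset are not given in the sources at hand, and direction was taken from the list names. Gene spans and promoter windows came from RefSeq GRCm38.p6, and all 93 pathway symbols and all 5 promoters matched. Starts were made 1-based. Regions were linked and counted with Python 3.11.15, pandas 2.3.3 and NumPy 2.4.6. Shares of more accessible regions among regions have exact Clopper-Pearson intervals from SciPy 1.17.1. Shares of genes have no interval. Linking was checked on 8 planted regions, and all were recovered. The genes and lists were chosen with earlier results of these data known, and the motifs and span classes after the lists were seen. The 5 genes, the pathway genes with a linked region and the genes to which neighbouring regions were linked are named; genes beyond 500 kb were named after their values were seen. No set test was made.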

Additional observations from a re-analysis of the deposited data

How the results depend on the processing

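The 5 genes kept their counts under most linking rules. Acvr1 had 0 linked regions of either direction in the main result and all 6 alternatives. The listed region nearest to Acvr1 lay 597 kb away, so only the rule of the nearest gene at any distance could have given it one. With non-coding genes and pseudogenes competing for links, 2 more accessible regions were linked to the 5 genes in place of 4, those inside Bmp5 and Bmpr2 (Smad3 had 0), while pathway genes with a linked region numbered 12 (more accessible) and 2 (less accessible) in place of 21 and 4. With links within 10 kb, 10 pathway genes had a more accessible region and Smad3 lost its more accessible one. With the nearest gene at any distance, 9 pathway genes had a less accessible region. The regions within 500 kb of the 5 genes, 11 more and 5 less accessible, became 7 and 2 within 250 kb and 25 more accessible within 1000 kb. Of 32 summary values under alternatives 24 stayed within a factor of 1.5, as did 90 of 100 for single genes. Many of the single-gene values were counts of 0 that stayed 0, which were taken as unchanged. Merging regions within 10 kb could not change the counts of single genes, as no regions of one direction lay that close in their windows. No paired analysis was possible because the lists hold no value per library, and for the same reason no replicate could be left out and no stricter threshold applied. Depth and the set of peaks tested are unknown, so a gene without a listed region may have had unchanged peaks or none.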

Other observations

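Further regions of one direction lay near each other between 500 and 1000 kb from the genes. On chromosome 9, 4 more accessible regions linked to Itga11, which encodes a collagen-binding integrin subunit, lay 934 to 988 kb from Smad3. Beside Bmp6, a pair of more accessible regions of 1089 and 604 bp lay 716 and 742 kb upstream, farther than 100 kb from any protein-coding gene. The 3 less accessible regions beside Mapk6 and Leo1, upstream of Bmp5, formed a close group. Of the 556 less accessible regions 13 (2.34%) were one of 3 whose midpoints lay within 60 kb, against 289 of the 2965 more accessible regions (9.75%). The width of 60 kb was chosen after these regions were seen, the lists differ in length, and no test was made.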
